A study of Bos taurus with 12 samples.

Results

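The genes described here are 45 genes of mitosis and cytokinesis, the steps in which a cell enters division, builds a spindle, separates its chromosomes and cuts itself in 2 cells. They were measured in liver biopsies of 12 Holstein cows on 1 Affymetrix Bovine Gene 1.0 ST array per cow, among 26773 transcripts in all. The genes were chosen from a list of mitotic entry, spindle, condensin and cytokinesis genes that was drawn up with the difference between the feeding groups on these arrays already known. Kinesins and kinetochore genes were left out. For this reason the differences between the groups below are descriptions of the chosen genes, and no p-value of a single gene of this list is given. A gene was taken from a transcript that the platform annotation gives exactly 1 symbol, and where several transcripts had that symbol, from the one with the highest mean signal over the 12 arrays. All 45 genes were found, and PTTG1 was the only one with several such transcripts.

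The 6 cows of the GSGME group received a mixed ration with GSGME, a meal extract from the seeds and marc of grapes that is rich in polyphenols, as 1% of the dry matter. The 6 control cows received the same ration with 1% wheat bran in its place. Feeding began 3 weeks before the expected calving and ended in week 9 of lactation. The livers were sampled in week 1 after calving, on about day 7, by needle biopsy. All cows were female Holsteins, mostly in a second or later lactation in both groups, and they were a part of the cows of a larger feeding trial. Cows are named by their group and their number in the labels, as in GSGME_1143.

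In an adult liver few hepatocytes divide, and most genes of mitosis are known to be switched on in a cell mainly from late S phase to the end of division. They are known to be turned on together by the transcription factors FOXM1 and B-MYB with the MuvB complex. Some of their proteins are destroyed at the exit from mitosis by a ubiquitin ligase, the anaphase-promoting complex or cyclosome (APC/C). Signals of these genes above background are therefore usually read as a sign of dividing cells of any type. What part of the signals here came from dividing cells was not tested. In a bulk biopsy, more dividing cells and more RNA of these genes per cell cannot be told apart.

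The deposited values are log2 signals, on which a difference of 1 is a 2-fold difference. The medians of the arrays were 6.02 to 6.17, and any pair of arrays correlated at 0.968 to 0.990 across transcripts, with 0 pairs alike in all values. All 10 hepatocyte markers had log2 signals of 8.07 or more in every cow, and ALB (albumin) had at least 13.63. As a guide to the array background, 717 transcripts of olfactory receptors, genes of the nose, had a median log2 signal of 3.67 and a 90th percentile of 5.23. The control mean of 20 of the 45 genes lay below that percentile and that of 1 gene, CEP55, below the median, so that differences of these genes start close to background. Cow GSGME_821 stood apart in stellate cell and fibroblast markers, with the highest mean of all cows (7.95, against 6.79 to 7.10 in the other cows). It also had the highest mean of bile duct markers (6.77, against 5.61 to 6.03). In that mean SPP1 stood out, at 9.82 in this cow against a GSGME median of 4.33. The bile duct markers KRT7, KRT19, SOX9 and CFTR had their highest GSGME value in other cows. Cow GSGME_821 also had the highest mean of T and NK cell (6.61), macrophage and Kupffer cell (9.185), endothelial (8.89) and B and plasma cell markers (5.98). The next cows were at 6.17, 9.07, 8.80 and 5.95. For neutrophil and erythroid markers other cows were higher. Its hepatocyte mean (12.13) was the lowest of the GSGME group, and cow control_1031 was lower (12.08).

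Of the 45 genes, 44 had the higher mean in GSGME cows, against 45.2% of all transcripts. The median log2 difference over the 45 genes, GSGME mean minus control mean, was 0.64, which is 1.56-fold, and the median over all transcripts was -0.02. By the criterion of the study (fold above 1.3 with p below 0.05 unadjusted, here from limma) 29 of the 45 genes were higher in GSGME cows, 0 were lower and 16 did not pass. Over all transcripts 1.20% were higher and 0.624% were lower by the same criterion. Since the list was drawn up on this contrast, its count is not independent evidence of a direction. No gene of the list passed an adjusted p of 0.05 over all transcripts (lowest adjusted p = 0.830, limma with Benjamini-Hochberg adjustment), whereas 33 of the 45 were below 0.05 without adjustment. With cyclic loess normalization between arrays, the calls over all transcripts shifted further to the higher side, to 375 higher and 112 lower transcripts, against 322 and 167 without it. In that setting 33 of the 45 genes were higher. The paper also measured STMN1, ECT2, CKAP2, PRR11 and HMMR by qPCR in all cows of the trial. It reported smaller folds than on the arrays for STMN1, ECT2, CKAP2 and PRR11 and the opposite direction for HMMR, none of them significant. For ESCO2, a gene of the further lists below, its qPCR showed almost no difference. TUBB, a tubulin gene outside the 45, was significantly higher in its qPCR, at a smaller fold than on the arrays.

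Averaged over the 45 genes, the log2 signal was 6.04 ± 0.51 in GSGME cows and 5.39 ± 0.37 in control cows (SD, n = 6 each). The single GSGME cows had means of 5.40 (cow GSGME_821), 6.21 (GSGME_741), 6.12 (GSGME_1047), 6.81 (GSGME_1143), 6.16 (GSGME_1124) and 5.56 (GSGME_1001). Those of the control cows were 5.10 (cow control_1017), 5.14 (control_819), 5.59 (control_825), 6.04 (control_1041), 5.30 (control_1031) and 5.15 (control_1150). The groups thus overlapped. The cows GSGME_741, GSGME_1047, GSGME_1143 and GSGME_1124 lay above every control cow, while cows GSGME_821 and GSGME_1001 lay below cows control_825 and control_1041. For no gene of the list did the ranges of the groups separate completely, and for 23 of the 45 at least 4 GSGME cows lay above the highest control cow. All 6 GSGME cows lay above the control mean for 16 genes, and 5 of 6 did for 24 genes. These counts of overlap were not made over all transcripts, so they describe the chosen genes only.

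**Figure D1:**
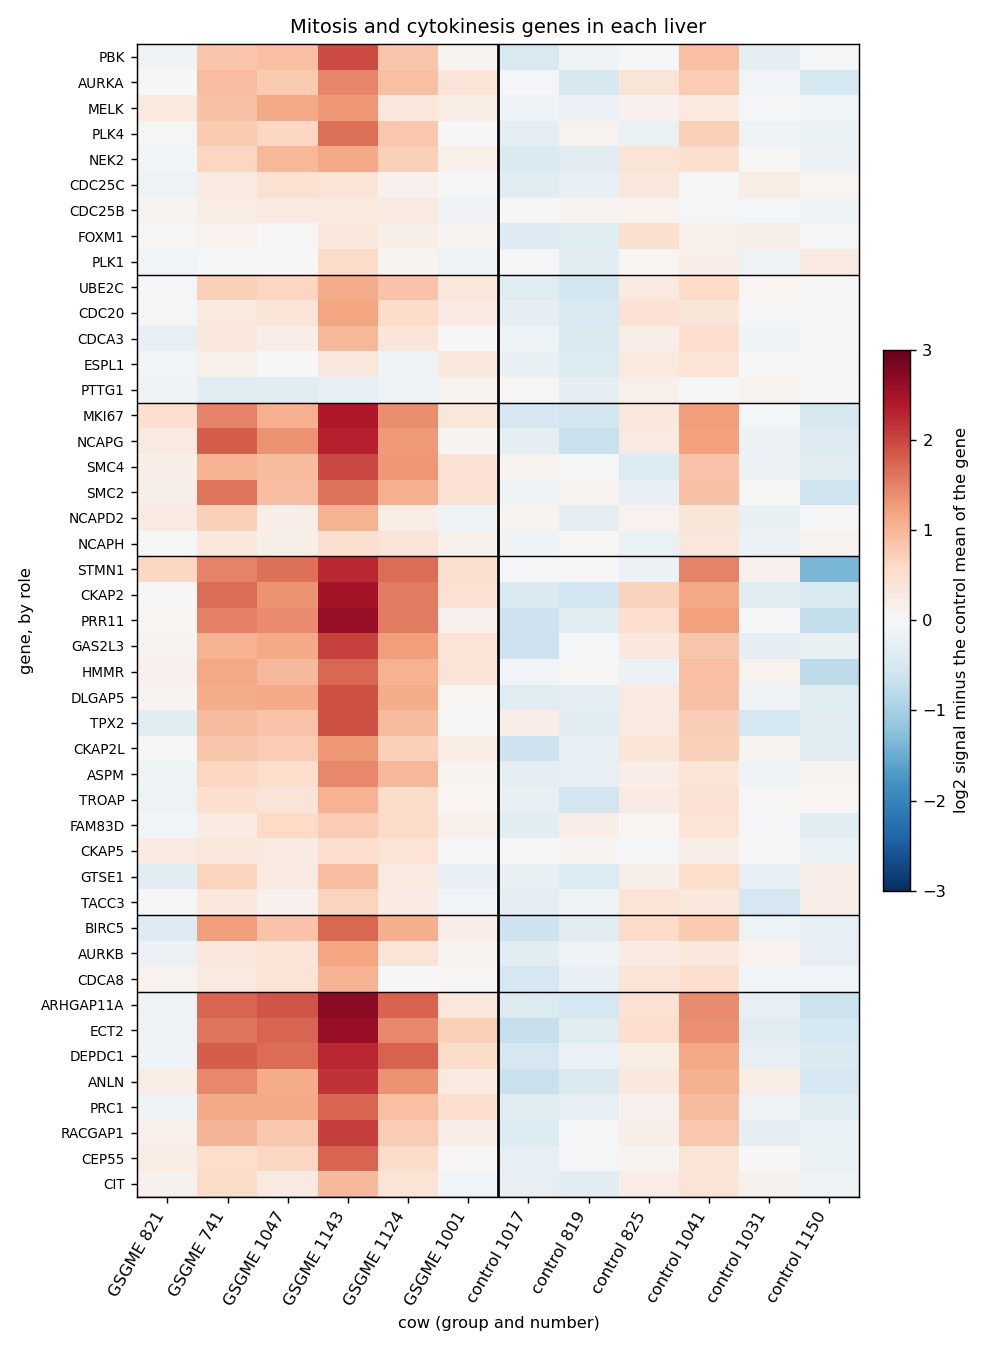
Log2 signal of each of the 45 genes (rows, in blocks by role: mitotic entry, anaphase and exit, condensin with MKI67, spindle, chromosomal passenger complex, central spindle and cytokinesis) in each cow (columns, 6 GSGME cows and then 6 control cows), as the difference from the control mean of that gene. Cows GSGME_741, GSGME_1047, GSGME_1143 and GSGME_1124 of the GSGME group and cow control_1041 are red over most rows, and cows GSGME_821 and GSGME_1001 are pale.

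The first block holds kinases, phosphatases and a transcription factor of mitotic entry. Of its 9 genes, 5 were higher at the criterion, and the median log2 difference was 0.59. PBK, a mitotic kinase, had log2 signals between 4.53 and 6.59 in GSGME cows (median 5.46), against 4.16 to 5.54 in control cows (median 4.54), and was 1.69-fold higher. Only cow GSGME_1143 exceeded cow control_1041, and the other 5 GSGME cows lay within the control range. PBK no longer passed the criterion without any one of cow GSGME_1143, cow control_1017 and cow control_1031. AURKA, the Aurora kinase of centrosomes and spindle poles, ranged from 5.29 to 6.77 in GSGME cows (median 6.15) and from 4.77 to 6.06 in control cows (median 5.24), a fold of 1.67. For AURKA, 4 of the GSGME cows were above the highest control cow. MELK (1.61-fold), PLK4 (1.57-fold), the kinase of centriole duplication, and NEK2 (1.51-fold), which acts in the separation of centrosomes, were the other genes past the criterion. Array weights ended the call of PLK4, as they did for PBK.

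The other 4 genes of this block did not pass the criterion. PLK1, the Polo kinase that promotes entry, spindle assembly and cytokinesis, had log2 signals from 7.31 to 8.03 in GSGME cows (median 7.43), against 7.14 to 7.72 in control cows (median 7.46). Here 5 of the GSGME cows fell within the control range and cow GSGME_1143 lay above it, with a log2 difference of 0.06 ± 0.13 (SE). Without cow GSGME_1143 this difference was -0.04, so that the place of PLK1 among the 44 genes with the higher mean in GSGME cows rested on that cow. FOXM1, the transcription factor that drives this set of genes, had a fold of 1.09, and no GSGME cow exceeded the highest control cow. CDC25B and CDC25C, phosphatases that activate the mitotic kinase CDK1, had folds of 1.12 and 1.13.

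Among 5 genes of anaphase and mitotic exit, UBE2C and CDC20 were higher at the criterion. UBE2C, a ubiquitin-conjugating enzyme that serves the APC/C, ranged from 6.41 to 7.55 in GSGME cows (median 7.14) and from 5.89 to 7.03 in control cows (median 6.48). It was 1.52-fold higher, with 4 GSGME cows above the control range. CDC20, an activator of the APC/C, had 5.49 to 6.74 in GSGME cows (median 5.91) and 5.09 to 6.0 in control cows (median 5.52), a fold of 1.35. Its call rested on single cows, since it was lost without any one of cows GSGME_1047, GSGME_1124 and GSGME_1143 and cows control_1017, control_819, control_1031 and control_1150. ESPL1, the separase that cleaves cohesin, lay between 5.17 and 5.64 in GSGME cows (median 5.38), inside the control range of 4.89 to 5.71 (median 5.26). CDCA3 did not pass, at 1.20-fold.

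PTTG1, the securin that inhibits separase, was the one gene of the list with the lower mean in GSGME cows, at a log2 difference of -0.18 that did not pass the criterion. Its log2 signals were 4.34 to 4.80 in GSGME cows (median 4.49), against 4.4 to 4.84 in control cows (median 4.72). A second transcript with the same symbol, at 2.59 to 3.58 in GSGME cows and 2.56 to 3.21 in control cows, differed in the other direction, by 0.20 on the log2 scale. This second transcript lay below the median olfactory receptor in all cows, so little can be read from its direction. The direction given for PTTG1 is that of the brighter transcript, whose control mean of 4.69 also lay below the 90th percentile of olfactory receptors.

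Condensin genes and MKI67 formed the block with the second largest difference, a median log2 difference of 0.98, and 5 of its 6 genes were higher at the criterion. MKI67, which encodes the proliferation marker Ki-67 of the chromosome surface, had log2 signals of 6.27 to 8.33 in GSGME cows (median 7.15), against 5.37 to 7.17 in control cows (median 5.66). All 6 GSGME cows lay above the control mean and 3 above the highest control cow, and the gene was 2.30-fold higher. NCAPG, a subunit particular to condensin I, ranged from 4.35 to 6.60 in GSGME cows (median 5.59) and from 3.62 to 5.52 in control cows (median 4.05), 2.27-fold higher. SMC4 and SMC2, the ATPases that condensin I and condensin II share, were 1.98-fold and 1.96-fold higher. The other subunits of condensin I differed less. NCAPD2 was 1.31-fold higher, just inside the fold of 1.3, and lost its call without any one of cows GSGME_741 and GSGME_1143 and cows control_1017, control_819, control_825, control_1031 and control_1150. NCAPH had 5.44 to 5.94 in GSGME cows (median 5.71), against 5.26 to 5.80 in control cows (median 5.42), and did not pass at 1.19-fold.

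The largest block, 14 genes grouped here under the spindle and its microtubules, held 9 genes higher at the criterion, with a median log2 difference of 0.68. STMN1 (stathmin), which destabilises microtubules, had log2 signals of 6.10 to 7.88 in GSGME cows (median 7.21), against 4.26 to 7.12 in control cows (median 5.59). It was 2.57-fold higher, although cow control_1041, at 7.12, lay among the GSGME cows. CKAP2, a protein of spindle microtubules, ranged from 5.58 to 8.06 in GSGME cows (median 7.03) and from 5.00 to 6.73 in control cows (median 5.17), 2.39-fold higher. For CKAP2 the cows GSGME_741, GSGME_1047, GSGME_1143 and GSGME_1124 exceeded every control cow.

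Of the other genes past the criterion in the spindle block, PRR11 was 2.32-fold higher and GAS2L3, which links actin and microtubules, 1.99-fold. HMMR and DLGAP5, both needed for a stable spindle, were 1.87-fold higher each. TPX2, the activator of AURKA, was 1.65-fold higher, CKAP2L 1.56-fold and ASPM, a protein of spindle poles, 1.51-fold. The call of TPX2 was lost without any one of 8 cows (cows GSGME_741, GSGME_1047, GSGME_1143 and GSGME_1124 and cows control_1017, control_819, control_1031 and control_1150). TROAP (1.32-fold), FAM83D (1.297-fold), CKAP5 (1.22-fold), GTSE1 (1.20-fold) and TACC3 (1.16-fold) did not pass. CKAP5 is a microtubule polymerase, and TACC3 binds it in the fibres that carry the chromosomes. The values of TACC3 were 6.59 to 7.33 in GSGME cows (median 6.85) and 6.17 to 7.08 in control cows (median 6.70), so that only cow GSGME_1143 lay above the control range.

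Within the chromosomal passenger complex, which corrects spindle attachments and later steers cytokinesis, 1 of 3 genes passed. BIRC5 (survivin) had log2 signals of 5.24 to 7.36 in GSGME cows (median 6.61), against 5.02 to 6.42 in control cows (median 5.43), and was 1.74-fold higher. Its GSGME cows fell apart into 4 above the highest control cow and 2, cows GSGME_821 and GSGME_1001, within the control range, and its call was lost without any one of cows GSGME_741, GSGME_1124 and GSGME_1143 and cows control_1017, control_819, control_1031 and control_1150. The kinase of the complex, AURKB, had 4.82 to 6.19 in GSGME cows (median 5.35) and 4.69 to 5.31 in control cows (median 5.01), at 1.28-fold. CDCA8 (borealin) had 4.69 to 5.73 in GSGME cows (median 4.89) and 4.19 to 5.2 in control cows (median 4.62), at 1.24-fold. Neither AURKB nor CDCA8 passed the criterion.

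Genes grouped here under the central spindle and cytokinesis had the largest median log2 difference of the 6 blocks, 0.99. Of its 8 genes, 7 were higher at the criterion. The block of condensin genes and MKI67 was close, at a median of 0.98, and their order depends on which genes a block holds. The 90th percentile of olfactory receptors was 5.23. Below it lay the control means of ARHGAP11A (4.51), ECT2 (4.80), DEPDC1 (4.28), ANLN (5.045), RACGAP1 (4.87) and CEP55 (3.465), close to background. Those of PRC1 and CIT lay above it. ARHGAP11A had the highest fold of the list, 2.61. Its log2 signals were 4.36 to 7.21 in GSGME cows (median 6.28), against 3.87 to 5.92 in control cows (median 4.18). The GSGME values split, with cows GSGME_821 and GSGME_1001 at 4.36 and 4.85 and the other 4 cows at 6.27 or more. ECT2, an exchange factor that acts at the cleavage furrow, ranged from 4.69 to 7.41 in GSGME cows (median 6.33) and from 4.11 to 6.17 in control cows (median 4.47), 2.53-fold higher. DEPDC1 was 2.51-fold higher and ANLN (anillin), the scaffold of the contractile ring, 2.13-fold.

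PRC1, which bundles the microtubules of the central spindle, was 1.85-fold higher, RACGAP1, a subunit of centralspindlin that recruits ECT2, 1.78-fold, and CEP55, which brings the abscission machinery to the midbody, 1.53-fold. CEP55 had a control mean below the median olfactory receptor, and its log2 difference of 0.61 became 0.39 without cow GSGME_1143, still past the criterion. CIT (citron kinase) was the one gene of this block that did not pass, at 1.298-fold just outside the criterion, with 5.84 to 6.88 in GSGME cows (median 6.25) and 5.59 to 6.29 in control cows (median 5.90).

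**Figure D2:**
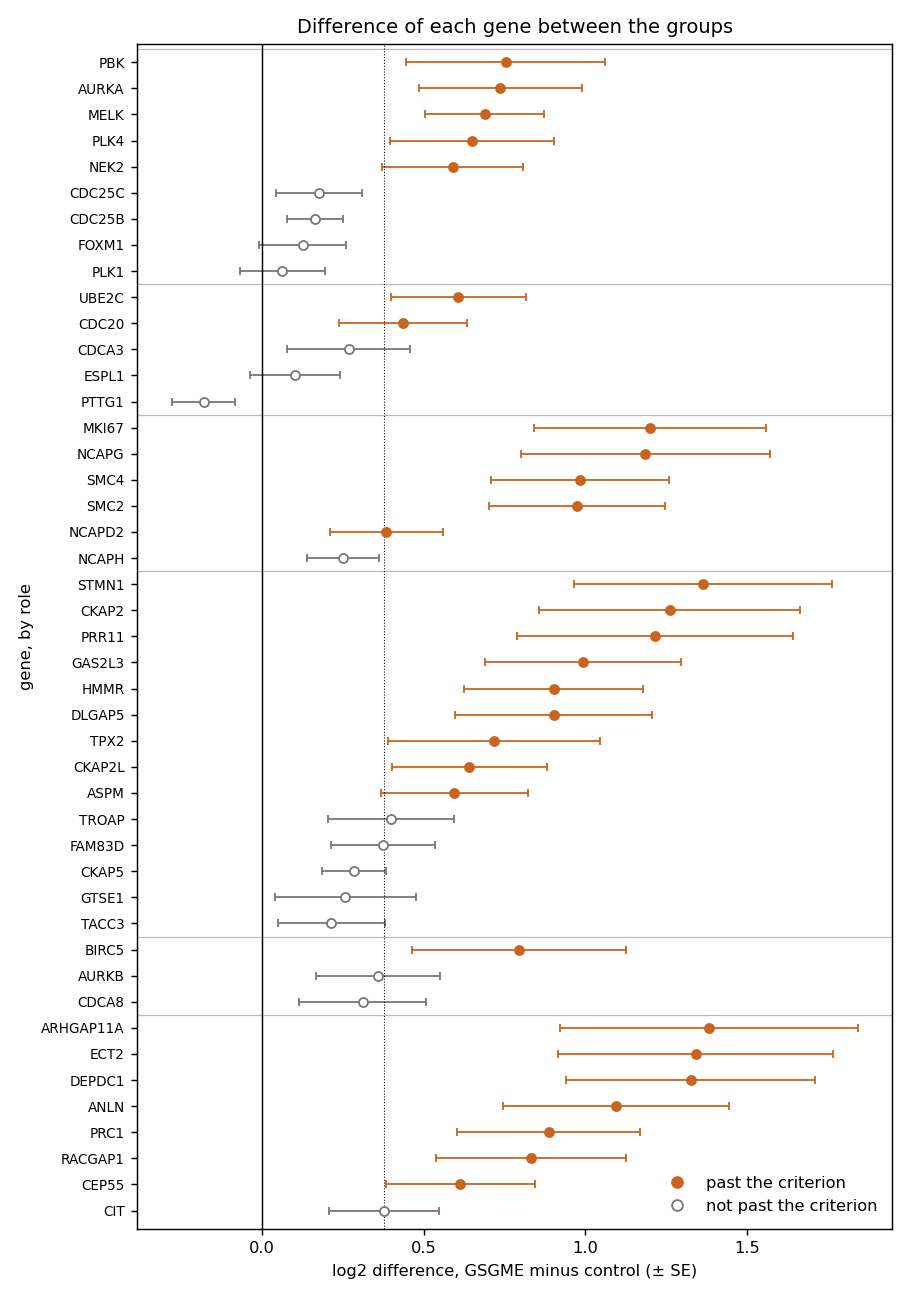
Log2 difference between the groups, GSGME mean minus control mean, for each of the 45 genes, with the SE from limma, in the same blocks by role. Filled points passed the criterion (29 genes), open points did not (16 genes), and the dotted line marks a fold of 1.3. The differences run from -0.18 for PTTG1 to 1.38 for ARHGAP11A.

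**Figure D3:**
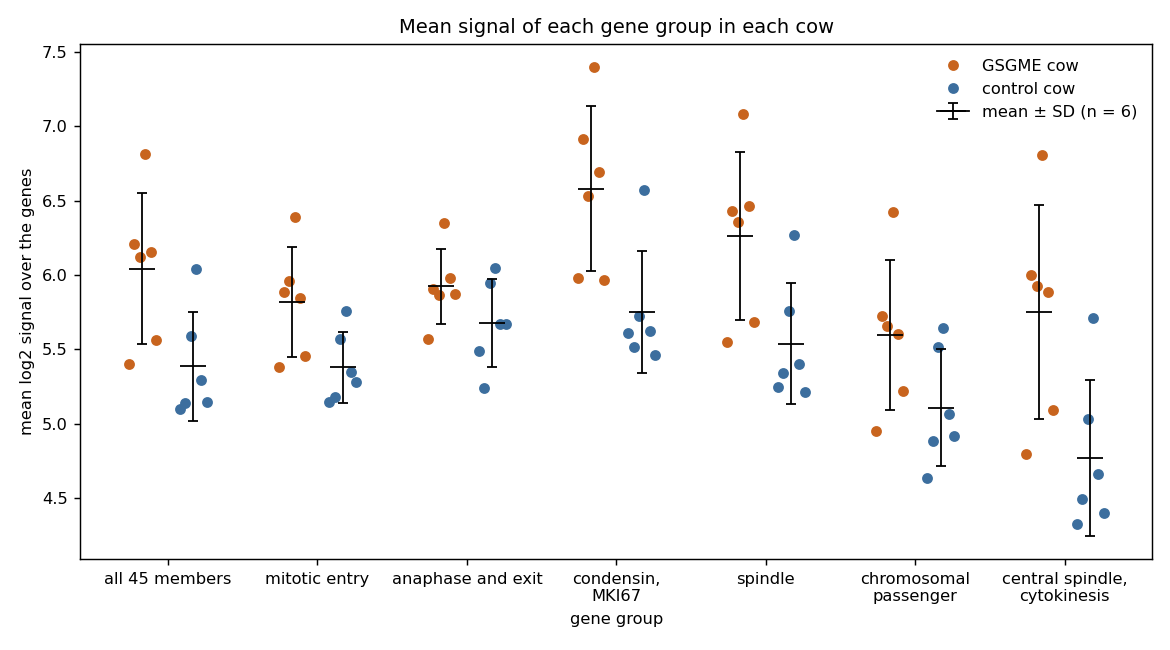
Mean log2 signal of each cow over all 45 genes and over the genes of each role, for 6 GSGME cows (left in each pair) and 6 control cows (right), with the mean and SD of each group. In all blocks the groups overlap, cow GSGME_1143 is the highest cow, and cow control_1041 is the highest control cow.

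The cows differed from each other within their groups more in these genes than in a usual transcript. The SD between cows of a group, pooled over both groups, had a median of 0.46 over the 45 genes and of 0.20 over all transcripts, and 30 of the 45 genes lay above the 90th percentile of all transcripts, 0.38. The median SD of the 45 genes was 0.51 in GSGME cows and 0.38 in control cows, whereas over all transcripts it was 0.16 in GSGME cows and 0.22 in control cows. These values are descriptions, since the list was drawn up on the same arrays.

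The highest cow of each group was the same for most of the genes. Cow GSGME_1143 was the highest GSGME cow for 43 of the 45 genes, and over all transcripts it was the highest GSGME cow for 17.6%. The exceptions were CDC25C, with cow GSGME_1047 on top, and PTTG1, with cow GSGME_1001. In the control group, cow control_1041 was the highest for 38 of the 45 genes, against 11.0% of all transcripts. Cow control_825 was the highest for 6 (CDC25B, CDC25C, FOXM1, CDC20, PTTG1 and TACC3), against 27.6% of all transcripts. Cow control_1150 was the highest for PLK1, against 16.0% of all transcripts. At the other end, cow GSGME_821 was the lowest GSGME cow for 28 genes (18.6% of all transcripts) and cow GSGME_1001 for 13 (16.3% of all transcripts). The lowest control cow varied more, being control_1017 for 18 genes, control_819 for 14 and control_1150 for 8. Over all transcripts these cows were the lowest control cow for 16.2%, 24.7% and 13.4%. Cow control_1041 exceeded at least 4 of the 6 GSGME cows for 11 genes, and the lowest GSGME cow for all 45. Cow GSGME_1001 lay above the highest control cow for 0 genes and cow GSGME_821 for 1, CKAP5. The corresponding numbers were 31 for cow GSGME_741, 28 for cow GSGME_1047, 42 for cow GSGME_1143 and 32 for cow GSGME_1124. Such counts of cows against the other group were not made over all transcripts.

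**Figure D4:**
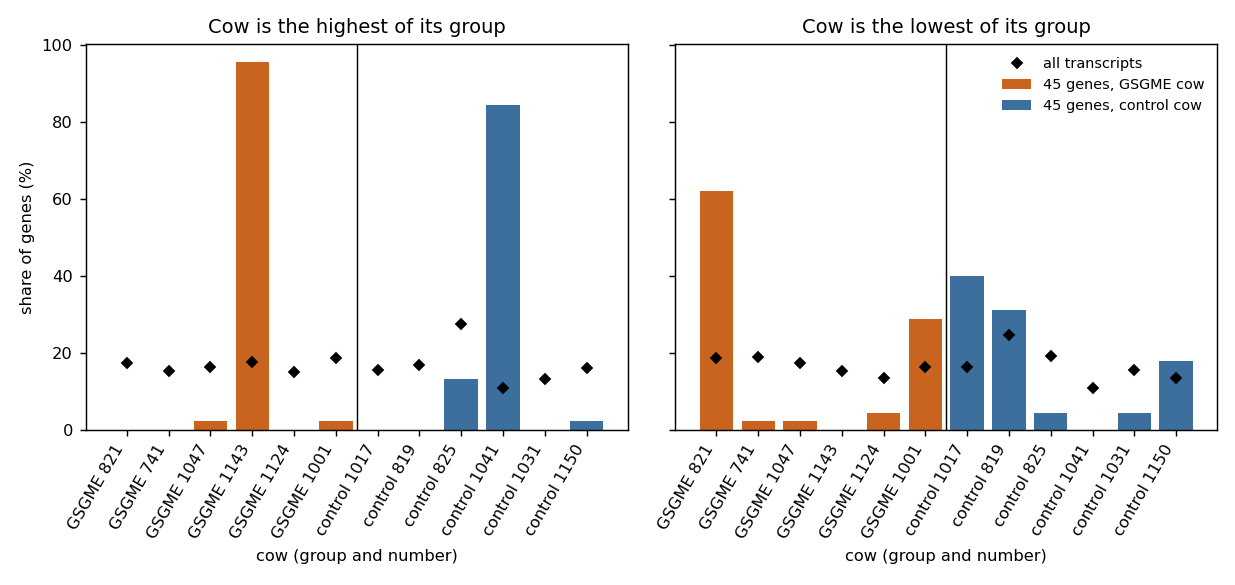
Share of the 45 genes for which each cow (6 GSGME cows on the left of each panel, 6 control cows on the right) had the highest (left panel) or the lowest (right panel) log2 signal of its group, with the same share over all transcripts as diamonds. Cow GSGME_1143 leads the GSGME group and cow control_1041 the control group for most of the genes, far above their shares over all transcripts of 17.6% and 11.0%.

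Once the group means were removed, a single axis over the 12 cows held 76.1% of the variance of the 45 genes, each gene scaled to the same variance, and the leading axis of all transcripts held 23.9%. Genes with a larger difference between the groups also varied more within them. The 9 genes with a fold over 2 (ARHGAP11A, STMN1, ECT2, DEPDC1, CKAP2, PRR11, MKI67, NCAPG and ANLN) had within-group SDs of 0.71 to 0.94, and the 16 genes that did not pass the criterion had 0.13 to 0.43. The control group alone showed the same order. There cow control_1041 exceeded the median of the other control cows by 1.40 to 1.82 on the log2 scale for the 9 genes and by -0.13 to 0.75 for the 16 genes, with a median of 0.75 over the 45. In these 9 genes the distance of cow control_1041 from the other control cows was therefore as large as or larger than the difference between the feeding groups, which was 1.09 to 1.38. That cow was picked as the highest control cow, and its values also raise the control mean and so lower the group difference. Without it the difference was 1.66 for STMN1, above the distance of 1.56, and 1.45 for MKI67, below its distance of 1.73. Of the 9 genes, ARHGAP11A, ECT2, DEPDC1, PRR11, NCAPG and ANLN had control means below the 90th percentile of olfactory receptors, and STMN1, CKAP2 and MKI67 above it.

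Further genes of mitosis and cytokinesis were taken from 8 lists outside the 45 genes, written with earlier results of these data known. Of their 117 measured genes, 8 were higher at the criterion (6.84%, against 1.20% of all transcripts), 0 were lower (0.624% of all transcripts) and 109 did not pass. The median log2 difference over the 117 genes was 0.08, against 0.64 over the 45 genes and -0.02 over all transcripts. No gene of these lists passed an adjusted p of 0.05 (lowest adjusted p = 0.830 from limma). The 8 became 4 without cow GSGME_1143, 5 without any one of cows GSGME_741 and GSGME_1124 and cow control_1150, and 4 with array weights.

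Among 4 genes of condensin II and its regulation, 0 passed the criterion. NCAPG2 had log2 signals of 5.97 to 6.71 in GSGME cows (median 6.46), against 5.64 to 6.53 in control cows (median 5.95), at 1.29-fold, and NCAPD3 had a fold of 1.19. NCAPH2 and MCPH1 had log2 differences of -0.04 and -0.09. In the cohesin list, ESCO2, which acetylates cohesin in S phase, was the 1 gene of 14 that passed, with 4.91 to 6.73 in GSGME cows (median 5.84) and 4.08 to 5.59 in control cows (median 4.81), 1.93-fold higher. Cohesin itself and its loaders did not pass. Of 17 genes of the APC/C and its partners, 1 passed, FBXO5 (1.35-fold), which encodes the inhibitor EMI1 and lost its call without cow GSGME_1143 or with array weights, and the median log2 difference of the list was 0.03.

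Genes that brake or time mitotic entry, with phosphatases of mitosis, were the list with the most calls, 4 of 14, all higher. MASTL (Greatwall kinase), which restrains the phosphatase that opposes CDK1, ranged from 3.88 to 5.80 in GSGME cows (median 4.93) and from 4.16 to 4.46 in control cows (median 4.31), so that the GSGME cows lay on both sides of a narrow control range. Its call was lost under array weights, or when any one was left out of cows GSGME_741, GSGME_1047, GSGME_1143 and GSGME_1124 and cows control_1017, control_819, control_1031 and control_1150. WEE1, the kinase that inhibits CDK1, had 8.41 to 8.96 in GSGME cows (median 8.77) and 7.32 to 8.87 in control cows (median 8.28), 1.45-fold higher. Array weights and cyclic loess each ended its call, as did leaving out any one of cows GSGME_741, GSGME_1143, GSGME_1124 and GSGME_1001 and cows control_1017, control_825 and control_1150. BORA, an activator of AURKA and PLK1, and CDC25A were 1.33-fold higher each. BORA lost its call without any one of cow GSGME_1124 and cows control_1031 and control_1150, and CDC25A under array weights, or when any one was left out of cows GSGME_741 and GSGME_1143 and cow control_819. The phosphatase subunits of the list did not pass. Of 11 genes of the DREAM and MuvB complexes and the MYB family, 0 passed. MYBL2, which encodes B-MYB, had 6.14 to 6.47 in GSGME cows (median 6.22), within the control range of 5.93 to 6.49 (median 6.19). Of 25 genes of gamma-tubulin, augmin and the spindle poles, 0 passed, at a median log2 difference of 0.08.

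In the list of the cleavage furrow, septins and abscission, DIAPH3, a formin, was the 1 gene of 23 that passed, at 1.52-fold, with 5.00 to 6.18 in GSGME cows (median 5.49) and 4.56 to 5.23 in control cows (median 4.89). Of 9 tubulins, 1 passed. TUBA1B, an alpha-tubulin, had log2 signals of 6.77 to 7.71 in GSGME cows (median 7.13), all above the control range of 6.28 to 6.74 (median 6.54), and had a log2 difference of 0.68. Tubulin genes are close copies of each other, and how far the array probes tell them apart was not tested. ESCO2, FBXO5, WEE1, MASTL and DIAPH3 had their highest GSGME value in cow GSGME_1143 and their highest control value in cow control_1041. These cows led most of the 45 genes, and led their groups for 17.6% and 11.0% of all transcripts. CDC25A and TUBA1B were highest in cows GSGME_741 and control_1041, and BORA in cows GSGME_1124 and control_819.

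**Figure D5:**
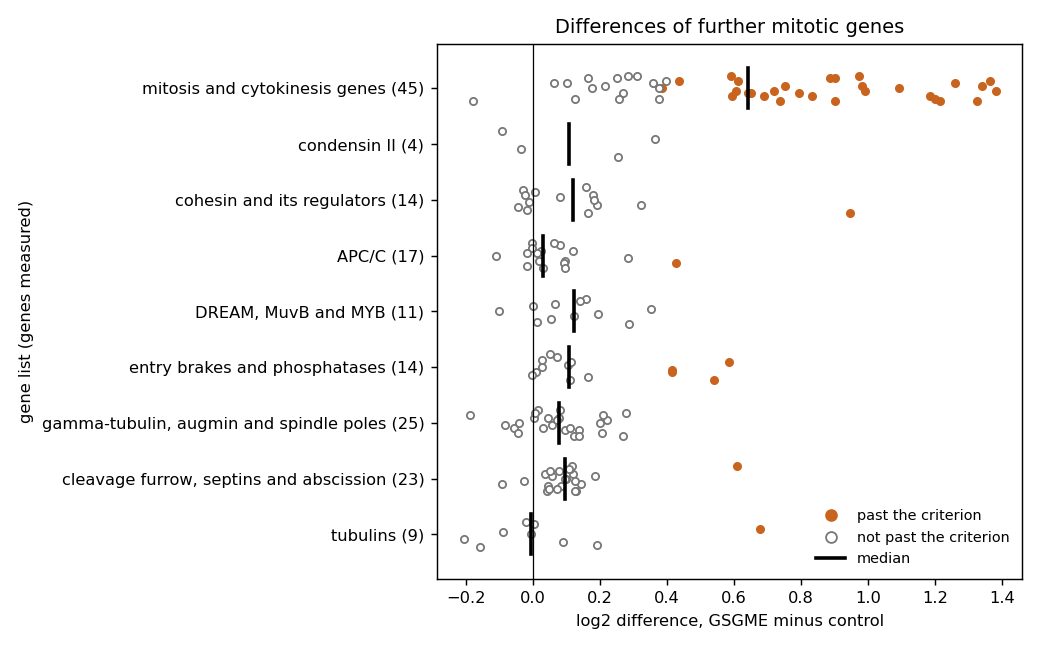
Log2 difference between the groups, GSGME mean minus control mean, of each gene of the 45 genes (top row) and of each of 8 lists of further mitotic genes, with the number of genes measured in brackets. Filled points passed the criterion, and the black line is the median of the list, 0.64 for the 45 genes and between -0.01 and 0.12 for the 8 lists.

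Markers of other cell types that could hold dividing cells were read beside these genes, with 1.20% of all transcripts higher at the criterion as their background. Of 12 T and NK cell markers, 1 was higher at the criterion (CD3D, 1.35-fold), and their mean log2 signal ranged from 6.0 to 6.61 in GSGME cows and from 5.82 to 6.13 in control cows. Of 8 B and plasma cell markers, 1 was higher (JCHAIN, 1.58-fold), with means of 5.64 to 5.98 in GSGME cows and 5.59 to 5.81 in control cows. No marker passed in the lists of hepatocytes, macrophages and Kupffer cells, neutrophils, erythroid cells, endothelial cells, bile duct epithelium, and stellate cells and fibroblasts. Cow control_1041, the highest control cow for most of the 45 genes, had the lowest T and NK cell mean (5.82) and the lowest B and plasma cell mean (5.59) of all 12 cows. Cow GSGME_821, the highest cow for T and NK cell markers, had the lowest mean over the 45 genes in its group. Cow GSGME_1143 had means of 6.03 for T and NK cells, 5.95 for B and plasma cells and 8.51 for macrophages, all within the range of the other cows. Beyond these values, the part of other cell types in the difference was not tested.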

How the data were processed

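Cell intensities of the 12 arrays were computed by the authors with the Affymetrix GeneChip Command Console, and the authors then ran RMA (background correction, quantile normalization, probe summary) in the Affymetrix Expression Console. Their versions were not given in the sources used here. In the deposited table the log2 signals have 2 decimals, without a stated filter on dim transcripts. Array precision is limited by the number of arrays, 6 per group, each from a separate cow. Symbols came from the platform annotation (18457 transcripts with 1 symbol, 688 with several, 7628 with none). All 45 symbols were unchanged in a gene table of the ARS-UCD bovine assembly.

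Groups were compared over all transcripts with limma 3.58.1 (lmFit, eBayes, two-sided) in R 4.3.3, with Benjamini-Hochberg adjustment over 26773 transcripts. Python 3.11.15, pandas 2.3.3 and matplotlib 3.10.9 were used otherwise. The limma comparison was tested on simulated data. The members and the gene lists were chosen with earlier results of these data known. Each gene of the list is named. Values are given in full for the 2 genes of each role with the largest difference and the 1 with the smallest, and for further genes chosen after their values were seen (PTTG1 and MYBL2). Genes of the further lists are named where they passed the criterion, with the condensin II genes. Alternatives were leaving out each cow, array weights, cyclic loess, eBayes with trend and robust settings, the methods' t-test, other fold thresholds, only transcripts above the median transcript, single-symbol transcripts and the mean of several transcripts. Scan or batch records were not used here.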

Additional observations from a re-analysis of the deposited data

Results flagged for a closer look

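In 104 groups of 6 cows (the 45 genes, their mean and the means of the 6 roles, in each group), the distance of the highest or lowest cow to its neighbour was set against the range of the group. Chance alone marks about 1 in 20 such groups, and 5 values stood out, about as many as that share gives. The groups are not independent either, since the same cows recur in them. The 5 values are therefore listed only as points to look at. Cow GSGME_1143 stood apart for PLK1, at a log2 signal of 8.03 with the next GSGME cow at 7.54, and for CEP55, at 5.22 with the next at 4.08. Cow control_1041 stood apart for PBK, at 5.54 with the next control cow at 4.64, and for the mean of condensin genes and MKI67, at 6.57 with the next at 5.73. For PTTG1, cow control_819 was apart at the low end, at 4.4 with the next control cow at 4.69. Of the genes named here, PBK lost its call without cow GSGME_1143, while CEP55 kept its call without any one cow, although without cow GSGME_1143 its log2 difference was 0.39 instead of 0.61. The difference of PLK1, which did not pass the criterion, was -0.04 without cow GSGME_1143 and 0.06 with it.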

How the results depend on the processing

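The mean difference over the 45 genes was 0.66 on the log2 scale and kept its direction in all alternatives run, with 0.78 where each cow's median over the genes took the place of its mean, 0.71 with cyclic loess and 0.61 for the genes above the median transcript. It lay between 0.50 (without cow GSGME_1143) and 0.79 (without cow control_1041) when each cow was left out in turn. The 29 higher genes became 24 in the methods' t-test (26 at its unadjusted threshold alone, 0 adjusted), 24 by array weighting (without PLK4, PBK, CDC20, NCAPD2 and TPX2), 33 with cyclic loess and with no fold threshold, and between 24 and 33 with each cow left out, and the 0 lower stayed 0 in all of these. Of the 29, 24 passed without any one cow. With only transcripts above the median transcript tested, 8 genes of the 45 were higher, since 30 of the 45 were not tested there. In that setting 2 of the further mitotic genes were higher. The 8 further genes became 6 in the methods' t-test (without WEE1 and MASTL), 4 with array weights (without FBXO5, WEE1, MASTL and CDC25A), 4 at a fold beyond 1.5, and between 4 and 10 with each cow left out, with 0 lower throughout. Dim signals limit the low genes, as 20 control means lay below the 90th percentile of olfactory receptors. No paired analysis was possible because the groups share no cow and no replicate number. The search for promoter motifs was not run, since no promoter sequence was used here.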
